A study of Mus musculus with 8 samples.

Results

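The genes described here are the mouse MHC class II chains, their chaperones and their transactivator, chosen by symbol alone: H2-Aa, H2-Ab1, H2-Eb1, H2-Eb2, H2-DMa, H2-DMb1, H2-DMb2, Cd74 and Ciita. All 9 were found among the 14971 genes with a symbol in the count table, and all 9 passed the filter on low counts that left 14184 genes for testing. RNA was sequenced from colonic lamina propria macrophages that were sorted as GPR35-positive or GPR35-negative from 4 male mice, each of which gave a library of either kind, so that 8 libraries fell into 2 groups of 4. GPR35, a receptor that signals through G proteins, is activated by metabolites such as kynurenic acid, and the comparison asks how colonic macrophages that stain for it differ from those that do not. Both groups were gated as MHCII+CD64+, so MHC class II protein on the surface was a condition of entry for either. The labels name no treatment, genotype, strain or age, and the replicate numbers 1 to 4 used below mark the animals.

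MHC class II molecules present peptides taken from endosomes and lysosomes to CD4+ T cells. An alpha and a beta chain pair in the endoplasmic reticulum around the invariant chain, encoded by Cd74, which blocks the groove and steers the complex to the endosome. There cathepsins cut the invariant chain down to a short peptide, which the H2-DM dimer then exchanges for others, while the H2-DO dimer restrains H2-DM, mainly in B cells. Ciita encodes a coactivator that binds no DNA itself and is recruited by RFX, CREB and NF-Y proteins sitting on the X and Y boxes of these promoters. Resident gut macrophages are known for high class II expression, which is gained as monocytes mature in the lamina propria.

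Promoter sequence is shown because H2-Eb2 and H2-DMb2, which differ from the other members in the counts described further on, carry the same paired elements as their close relatives. Of the 9 genes, 6 had promoters in the RefSeq table of the GRCm38.p6 build, with 7 promoters between them, and the missing entries were H2-Ab1, Cd74 and Ciita. The 250 bases before each start were searched on both strands for an X1 core (AACNGATG), an X2 box (TGACGTCA) and a Y box (TGATTGG), letters that were chosen after these promoters had been read. Capitals mark the matches in the stretches below, each written 5′ to 3′ on the strand of its gene.
H2-Aa, minus strand, chr17:34287857-34287907: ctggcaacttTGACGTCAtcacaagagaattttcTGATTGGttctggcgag
H2-Eb1, plus strand, chr17:34305768-34305822: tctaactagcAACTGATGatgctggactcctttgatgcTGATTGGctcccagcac
H2-Eb2, plus strand, chr17:34325535-34325589: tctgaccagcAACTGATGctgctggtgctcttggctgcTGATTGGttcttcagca
H2-DMb1, plus strand, chr17:34153089-34153144: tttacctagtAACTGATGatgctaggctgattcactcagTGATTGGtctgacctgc
H2-DMb2, plus strand, chr17:34145118-34145173: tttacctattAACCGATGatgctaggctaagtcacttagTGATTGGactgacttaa
In H2-Eb1 and H2-Eb2 the X1 core and the Y box stood 20 bases apart, and in H2-DMb1 and H2-DMb2 they stood 21 bases apart. In H2-Aa an X2 box lay 16 bases before the Y box. Over all 32851 promoters of the table, the X1 core occurred in 1.98%, the X2 box in 1.55% and the Y box in 7.23%. An X1 core followed by a Y box after 10 to 40 bases occurred in 7 promoters, those of H2-Eb1, H2-Eb2, H2-DMb1, H2-DMb2, H2-M10.4, BC051142 and Gm35444, which is 0.0213% of the table. The 2 promoters of H2-DMa held none of the 3 motifs, and those of H2-Oa and H2-Ob, the H2-DO chains, held the Y box without the other elements. These are letter matches in a fixed window, and whether a factor was bound was not measured.

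On the GRCm38.p6 annotation, 7 of the 9 genes lie on chromosome 17, within the H2 complex, from H2-DMa, whose gene starts at 34119693, to H2-Eb2, whose gene ends at 34341410. The annotated genes of H2-DMb2 and H2-Eb2 start at 34143229 and 34325503, before the stretches printed for them above. The starts used in the promoter search thus lie inside these 2 genes as annotated. Ciita lies on chromosome 16, from 10480014 to 10531064 on the plus strand. The library method does not mark strand, so reads of the annotated overlaps cannot be told apart: H2-DMa overlaps Brd2 and Ciita overlaps Dexi, both on the opposite strand, and H2-Eb1 overlaps an antisense RNA. The H2-DM beta genes are near-identical over part of their length. Of the 1434 windows of 50 bases in the H2-DMb2 transcript, 25.2% occur letter for letter in the H2-DMb1 transcript, so how reads were divided between them is uncertain. H2-Eb2 and H2-Eb1 share 0 such windows.

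Gpr35 itself averaged 73.3 ± 14.9 CPM in libraries sorted as positive and 2.97 ± 1.46 in those sorted as negative (SD, n = 4), with no overlap. CPM are counts put on a common library size, here with scaling by the trimmed mean of M-values (TMM). Total counts ran from 33.8 to 48.6 M in the positive and from 16 to 30.1 M in the negative libraries. Fcgr1, which encodes the CD64 of the gate, averaged 192 ± 21.4 CPM in the positive and 48.4 ± 36.2 CPM in the negative libraries. Shares over all genes tested, to be set beside the counts of genes that follow, were 18.5% called higher and 19.5% called lower in the positive group. The check of the macrophage label found all 19 macrophage identity genes listed (Csf1r, Adgre1, C1qa, Mertk and others) higher in the positive group, with a median log2 fold change of 2.08 and summed levels of 44692 to 52925 CPM against 4670 to 22579 CPM. Plasma cell genes (Jchain, Sdc1, Xbp1 and others) summed to 73358 to 142899 CPM in the negative and 1328 to 2761 CPM in the positive libraries. Of these genes 8 of 9 were lower in the positive group, and Prdm1 was higher (log2 fold change 0.67 ± 0.17, adjusted p = 0.0140, edgeR). Of 11 B cell genes tested, 8 were lower in the positive group and 0 higher, with summed levels of 163 to 191 CPM against 493 to 1828 CPM. The GPR35-negative libraries thus carried RNA typical of other cell types beside that of macrophages, and each level below is a level per library, in which fewer cells of a type and less RNA per cell cannot be told apart. The part of plasma and B cells in the class II levels was not tested.

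Class II genes differed between the groups at every step from transactivator to peptide exchange, and 1 of the 9 went the other way. H2-Aa, H2-Ab1, H2-Eb1, H2-DMa, H2-DMb1, H2-DMb2, Cd74 and Ciita were higher in GPR35-positive libraries, by 3.23-fold for H2-DMb2 to 6.89-fold for H2-DMb1, and H2-Eb2 was 6.82-fold lower. These are TMM values, and the call of the 8 higher genes was lost, with H2-DMa, H2-DMb2 and Cd74 below 0, when libraries were scaled to macrophage identity genes, as described further on. All 8 higher genes were higher in the positive library of each of the 4 animals, H2-Eb2 was lower in each, and the groups overlapped for none of the 9. Of all genes tested, 18.5% were called higher and 19.5% lower at an adjusted p below 0.05 (edgeR quasi-likelihood test with Benjamini-Hochberg adjustment), and the ranges of the groups did not overlap for 21.5% on the higher and 20.6% on the lower side. The median log2 fold change of the 9 members was 2.45, against -0.05 over all genes. The 9 genes together took 7.88 ± 0.699% of all counts in the positive and 2.11 ± 0.859% in the negative libraries (SD, n = 4).

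**Figure D1:**
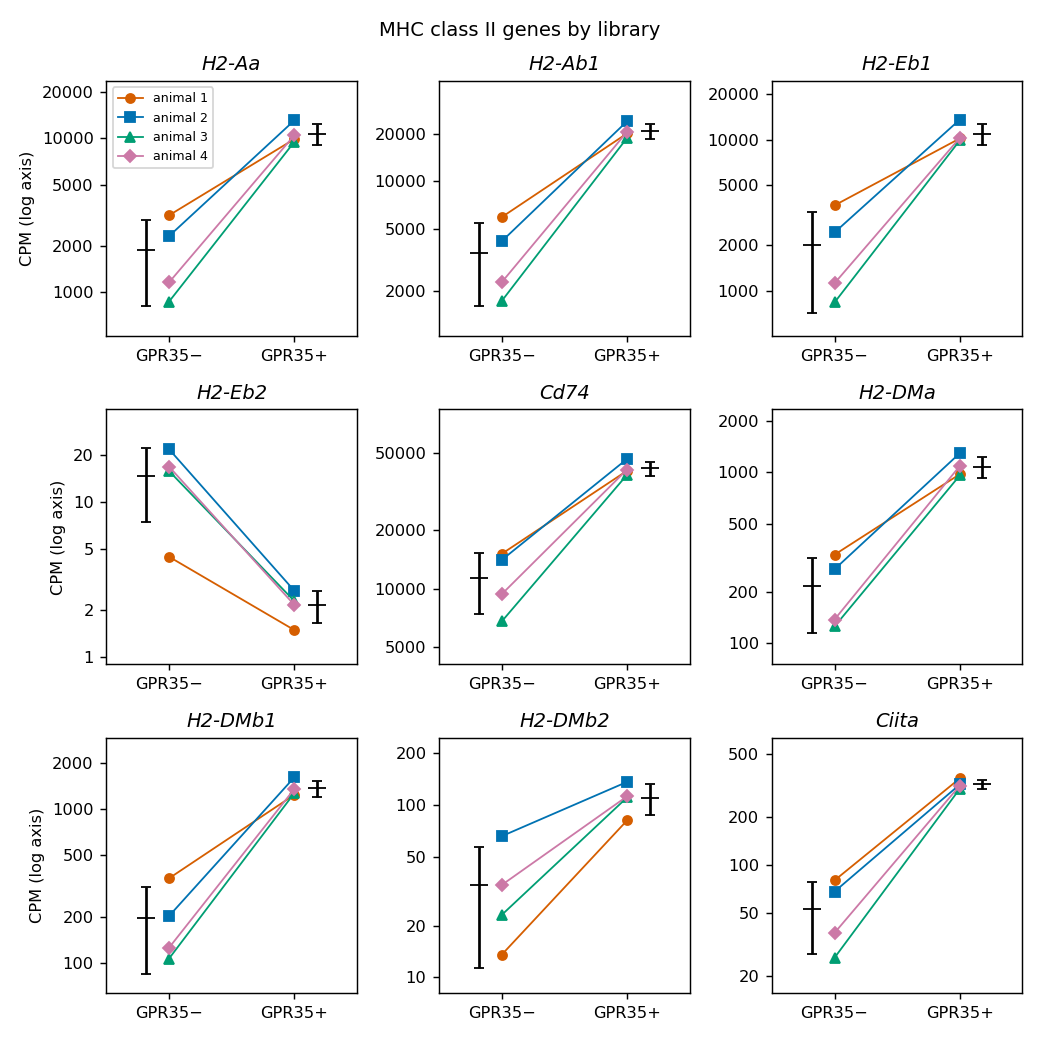
Level of each of the 9 class II genes in every library, in TMM-scaled CPM on a log axis, with GPR35− and GPR35+ libraries side by side, lines joining the libraries of 1 animal and bars giving mean ± SD over 4 libraries. Lines climb from the negative to the positive library for every gene but H2-Eb2, where all 4 fall.

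Among the chains that form the presenting molecule, H2-Ab1, the beta chain of H2-A, stood at 20091, 23993, 18805 and 20560 CPM in the GPR35-positive libraries of animals 1 to 4 and at 5918, 4158, 1740 and 2288 CPM in the negative ones. The lowest positive library was thus above the highest negative one, and the negative library of animal 1 was the nearest to the positive group. The log2 fold change was 2.56 ± 0.38 (SE, adjusted p = 0.00127, edgeR). H2-Aa, the alpha chain that pairs with it, stood at 9837, 13002, 9431 and 10414 CPM in the positive and at 3156, 2313, 871 and 1160 CPM in the negative libraries. The libraries held the same order as for H2-Ab1 in the negative group, from animal 1 at the top to animal 3 at the bottom. Its log2 fold change was 2.51 ± 0.40 (adjusted p = 0.00183, edgeR).

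H2-Eb1 encodes the beta chain of H2-E. It stood at 10209, 13606, 9915 and 10293 CPM in the positive libraries and at 3679, 2433, 837 and 1122 CPM in the negative ones. The positive library of animal 2 was above the other 3, which lay close together, and the groups did not overlap. The log2 fold change was 2.45 ± 0.45 (adjusted p = 0.00347, edgeR). H2-Ea, the alpha partner of this chain, was not among the gene symbols of the count table, nor was H2-Ea-ps, so its level is not known here.

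Cd74 had more CPM than any other gene in the GPR35-positive group and ranked 2 in the negative group. It stood at 40665, 46768, 38747 and 41231 CPM in the positive libraries and at 15144, 14083, 6785 and 9377 CPM in the negative ones. The negative libraries of animals 1 and 2 were close to each other and above those of animals 3 and 4. Its log2 fold change was 1.88 ± 0.27 (adjusted p = 0.00108, edgeR), or 3.69-fold, beside 5.45-fold to 5.92-fold for the 3 chains above.

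The H2-DM dimer, which loads peptide in the endosome, has H2-DMa as its alpha chain and H2-DMb1 or H2-DMb2 as its beta chain. H2-DMa stood at 975, 1294, 959 and 1089 CPM in the positive and at 330, 271, 126 and 138 CPM in the negative libraries, a log2 fold change of 2.32 ± 0.33 (adjusted p = 0.00108, edgeR). H2-DMb1 stood at 1235, 1602, 1265 and 1345 CPM in the positive and at 355, 202, 107 and 126 CPM in the negative libraries, a log2 fold change of 2.79 ± 0.37 (adjusted p = 8.64e-04, edgeR). For both genes the negative libraries ran in the order of the H2-A chains, from animal 1 down to animal 3. H2-DMb2 did not follow that order. It stood at 81.5, 137, 111 and 113 CPM in the positive and at 13.5, 66.1, 23.1 and 34.4 CPM in the negative libraries, so that the negative library of animal 1, the highest of its group for the H2-A chains, H2-Eb1, H2-DMa and H2-DMb1, was the lowest here. The log2 fold change was 1.69 ± 0.43 (adjusted p = 0.0151, edgeR), and the call was lost without animal 3 (1.54, adjusted p = 0.0748, edgeR) and without animal 4 (1.69, adjusted p = 0.0787, edgeR).

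Ciita stood at 353, 323, 303 and 318 CPM in the positive and at 80.1, 68.1, 26.0 and 37.3 CPM in the negative libraries. Its positive libraries were the most alike of any member, with a coefficient of variation of 6.38%. With a log2 fold change of 2.62 ± 0.34 (adjusted p = 7.08e-04, edgeR), it had the smallest adjusted p of the 9.

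H2-Eb2 encodes a second beta chain of the E type, and was the 1 member that was lower. It stood at 1.49, 2.68, 2.30 and 2.17 CPM in the positive and at 4.43, 21.9, 15.8 and 16.9 CPM in the negative libraries, from 64 to 92 counts in the positive and 145 to 508 counts in the negative libraries. The negative library of animal 1 was well below the other 3 of its group, yet above every positive library. The log2 fold change was -2.77 ± 0.48 (adjusted p = 0.00266, edgeR).

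Per kilobase of the gene length given in the table, the positive libraries ordered the genes as Cd74 at 29578 CPM per kb, H2-Ab1 at 17487, H2-Aa at 9982, H2-Eb1 at 6594, H2-DMb1 at 1061, H2-DMa at 651, H2-DMb2 at 140, Ciita at 54.1 and H2-Eb2 at 0.639. Neighbours in this order did not overlap in the positive group. The means of the negative libraries gave the same order, from 8019 CPM per kb for Cd74 down to 8.82 for Ciita and 4.37 for H2-Eb2, but neighbours overlapped except between H2-Eb1 and H2-DMb1 and between H2-DMb2 and Ciita, and 1 of the 4 negative libraries had H2-DMb1 below H2-DMa and 1 had Ciita below H2-Eb2. The length given for H2-DMb2 is 786 bases, against 1483 bases for the GENCODE transcript, so its place per length is less sure.

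The GPR35-negative libraries spread more widely than the positive ones for every member. Coefficients of variation ran from 6.38% to 20.4% among the positive libraries for the 8 higher genes and from 34.7% for Cd74 to 66.7% for H2-DMb2 among the negative ones. Within animals, the median log2 difference of the 8 higher genes was 1.70, 2.37, 3.44 and 3.13 in animals 1 to 4. The median difference of the 19 macrophage identity genes was 1.12, 2.43, 3.22 and 3.00 in the same animals, and that of all genes lay between -0.09 and 0.02. These medians of the class II and the macrophage genes ranked the 4 animals in 1 order, while H2-DMb2 differed most in animal 1 (2.58) and least in animal 2 (1.047), and H2-DMa differed slightly more in animal 4 (2.98) than in animal 3 (2.93).

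Because the macrophage identity genes moved with the class II genes, the fit was repeated with every library scaled to the geometric mean of those 19 genes, which include Fcgr1. On that scale H2-Eb2 kept its call among the 9 and no member was called higher. The log2 fold change was 0.20 for H2-Aa (adjusted p = 0.681), 0.24 for H2-Ab1 (0.621), 0.20 for H2-Eb1 (0.677), -0.07 for H2-DMa (0.892), 0.47 for H2-DMb1 (0.334), -0.999 for H2-DMb2 (0.0926), -0.59 for Cd74 (0.228) and 0.24 for Ciita (0.618), all by edgeR. H2-Eb2 was at -5.60 (adjusted p = 9.85e-07, edgeR). This scaling moved the median of all genes to -2.74, with 87.4% of genes called (0.402% higher and 87.0% lower), so each value is read against that shift. Relative to macrophage identity genes, then, the classical chains, H2-DMa, H2-DMb1, H2-DMb2, Cd74 and Ciita differed by less than their errors allow to be called. This does not show that they were equal.

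**Figure D2:**
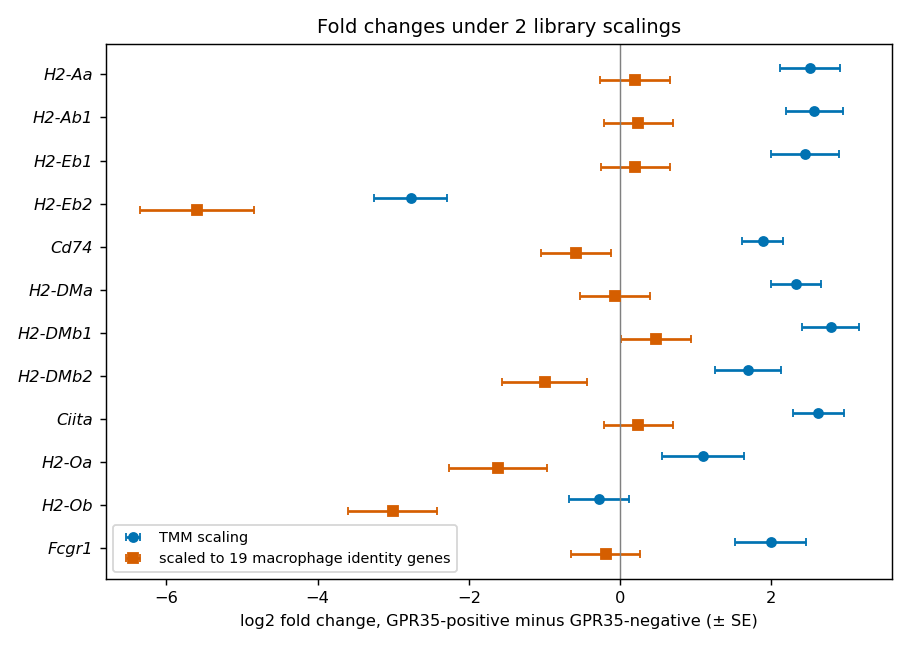
Log2 fold change (GPR35-positive minus GPR35-negative, ± SE from edgeR) of the 9 class II genes, H2-Oa, H2-Ob and Fcgr1, with circles for TMM scaling and squares for scaling to 19 macrophage identity genes. All members but H2-Eb2 lie to the right of 0 under TMM, from 1.69 to 2.79, and between -0.999 and 0.47 under the other scaling, while H2-Eb2 lies to the left under both.

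Ratios of 2 genes within a library do not depend on the scaling. For each of 20 pairs the log2 ratio of counts (offset 0.5) was compared between groups by a 2-sided exact permutation test, which cannot go below 0.0286 with 4 libraries against 4. After adjustment over the 20 pairs no p was below 0.0571, so no difference in ratio passed, and 10 pairs stood at the smallest value possible. That test does not use the pairing by animal. Flipping signs within the 4 animals gave an exact p of 0.125, the smallest it can give, for each of those 10 pairs, whose differences had 1 sign in all 4 animals. The chains of the presenting molecule kept close proportions in the group means. H2-Aa had 0.490, 0.542, 0.501 and 0.507 counts per count of H2-Ab1 in the positive and 0.533, 0.556, 0.500 and 0.507 in the negative libraries, a log2 difference of -0.04 (exact permutation p = 0.429). H2-Eb1 and Ciita also had like mean ratios to H2-Ab1 in both groups, with log2 differences of -0.04 (exact permutation p = 0.714) and 0.03 (exact permutation p = 0.771). Single animals differed in sign, from -0.29 to 0.13 for H2-Eb1 and from -0.28 to 0.38 for Ciita. For H2-Eb1 the negative libraries had 0.622, 0.585, 0.481 and 0.491 counts per count of H2-Ab1, against 0.501 to 0.567 in the positive ones.

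Cd74 was less steady. It had 2.02, 1.95, 2.06 and 2.005 counts per count of H2-Ab1 in the positive and 2.56, 3.39, 3.90 and 4.10 in the negative libraries. Every negative library was above every positive one, and the log2 difference was -0.77 (exact permutation p = 0.0286, adjusted 0.0571). The H2-DM chains had unlike ratios as well. H2-DMa had 0.789, 0.808, 0.758 and 0.810 counts per count of H2-DMb1 in the positive libraries, and 0.929, 1.34, 1.17 and 1.09 in the negative ones (log2 difference -0.51, exact permutation p = 0.0286, adjusted 0.0571). H2-DMb2 per count of H2-DMb1 was 0.0660 to 0.0877 in the positive libraries, and 0.0382 in the negative library of animal 1 against 0.215 to 0.327 in the other 3 negative libraries (exact permutation p = 0.143).

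**Figure D3:**
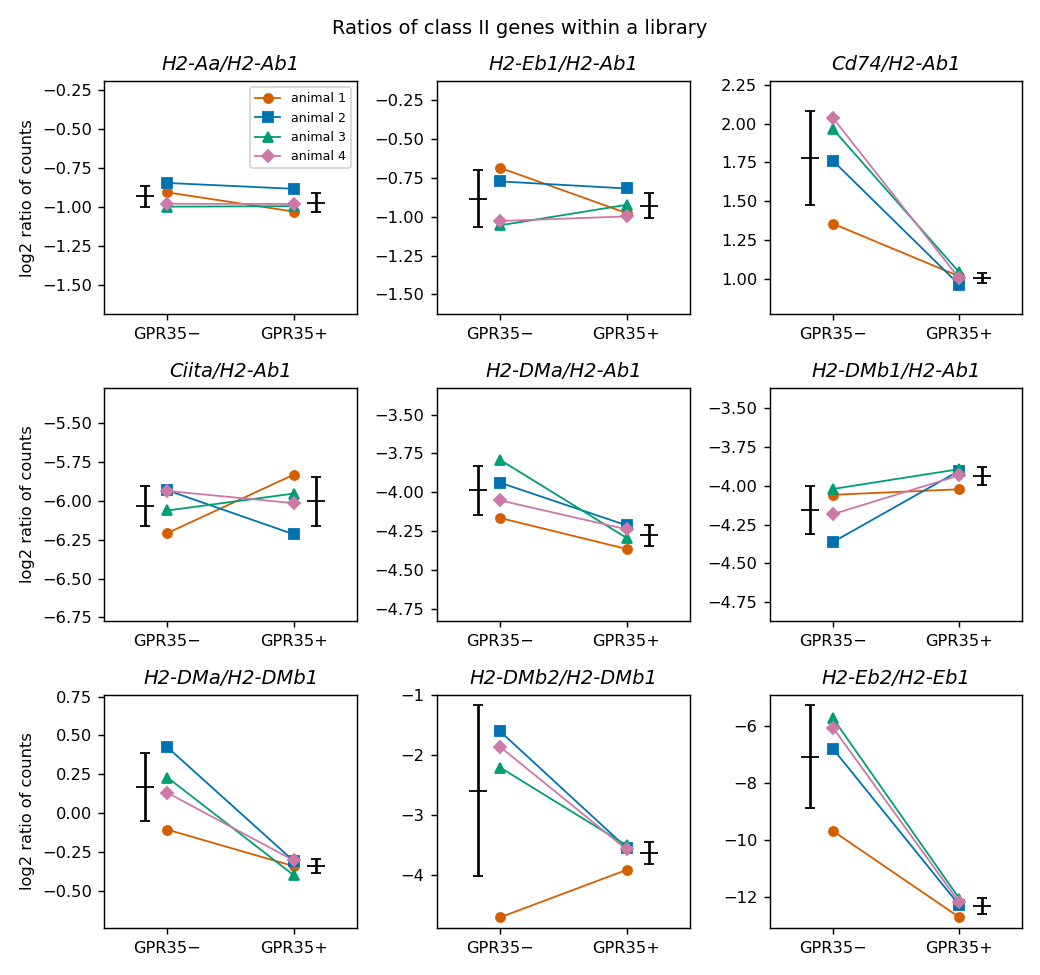
Log2 ratio of counts of 2 genes within each library for 9 pairs, with GPR35− and GPR35+ libraries side by side, lines joining the libraries of 1 animal and bars giving mean ± SD over 4 libraries. H2-Aa, H2-Eb1 and Ciita keep their ratio to H2-Ab1 within the spread of the libraries, while Cd74 per H2-Ab1 and H2-Eb2 per H2-Eb1 are higher in all 4 GPR35− libraries.

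Against Fcgr1, the gate's own gene, Ciita had 1.60 to 1.84 counts per count in the positive and 0.814 to 1.59 in the negative libraries (log2 difference 0.47, exact permutation p = 0.0286, adjusted 0.0571). For H2-DMb1 the log2 difference was 0.66 (exact permutation p = 0.0286, adjusted 0.0571), for H2-Ab1 it was 0.44 (exact permutation p = 0.0571, adjusted 0.0952) and for Cd74 it was -0.33 (exact permutation p = 0.314). Fcgr1 itself was higher in the positive libraries (log2 fold change 1.99 under TMM). Each of these 4 differences was therefore bound to be smaller in size than the TMM log2 fold change of the same gene.

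H2-Eb2, H2-DMb2 and the H2-DO chains, which restrain H2-DM and are known from B cells, varied together among the libraries of a group. H2-Oa stood at 13.3, 40.6, 37.8 and 34.8 CPM in the positive and at 4.40, 29.4, 11.6 and 14.03 CPM in the negative libraries, where the groups overlapped. Its log2 fold change of 1.10 ± 0.54 did not pass (adjusted p = 0.141, edgeR), but did with the animal as a block (1.27, adjusted p = 0.00928, edgeR), a fit that called 39.4% of all genes and all 9 members, and without the negative library of animal 2 (1.73, adjusted p = 0.0311, edgeR). H2-Ob stood at 48.4, 84.1, 81.5 and 80.9 CPM in the positive and at 35.9, 156, 73.0 and 93.7 CPM in the negative libraries (log2 fold change -0.28 ± 0.39, adjusted p = 0.596, edgeR). In both groups the library of animal 1 was the lowest for H2-Oa, H2-Ob, H2-DMb2 and H2-Eb2. Listed genes of dendritic cells summed to 0.0197% of counts in the positive library of animal 1 and to 0.0520% to 0.0591% in the others. In the negative libraries the values were 0.0218% and 0.0387% to 0.0647%. Listed B cell genes summed to 0.0144% in the positive library of animal 1, near the 0.0145% to 0.0179% of the others. Negative libraries had 0.0536% for animal 1 and 0.103% to 0.192% for the others. Which cells set this order was not tested.

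Of the 11 B cell genes tested, 10 were also lowest in the library of animal 1 among the negative libraries, and Bank1, a B cell scaffold protein, was not, with 61.9 CPM there and its lowest level, 29.8 CPM, in animal 3. Ms4a1, which encodes the B cell surface protein CD20, stood at 1.87, 162, 44.6 and 56.1 CPM in the negative and at 2.51 to 3.996 CPM in the positive libraries. Blk, a kinase of B cells, stood at 9.44, 47.2, 17.4 and 23.2 CPM in the negative and at 0.513 to 1.30 CPM in the positive libraries. In the negative library of animal 1 Ms4a1 was below the positive range and Cr2 was at 0 CPM, while Blk was above its positive range and Cd79a, a signalling chain of the B cell receptor that plasma cells also can carry, stood at 211 CPM there and at 4.99 to 11.1 CPM in the positive libraries. H2-Eb2 in that library was still 4.43 CPM against 1.49 CPM in the positive library of the same animal. The part of B lineage cells in the H2-Eb2 difference was not tested. Per count of Cd79a, H2-Eb2 was higher in the positive libraries, with 0.208 to 0.336 counts against 0.0210 to 0.0417 (log2 difference 3.17, exact permutation p = 0.0286, adjusted 0.0571), and per count of Ms4a1 the groups overlapped (exact permutation p = 0.514).

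**Figure D4:**
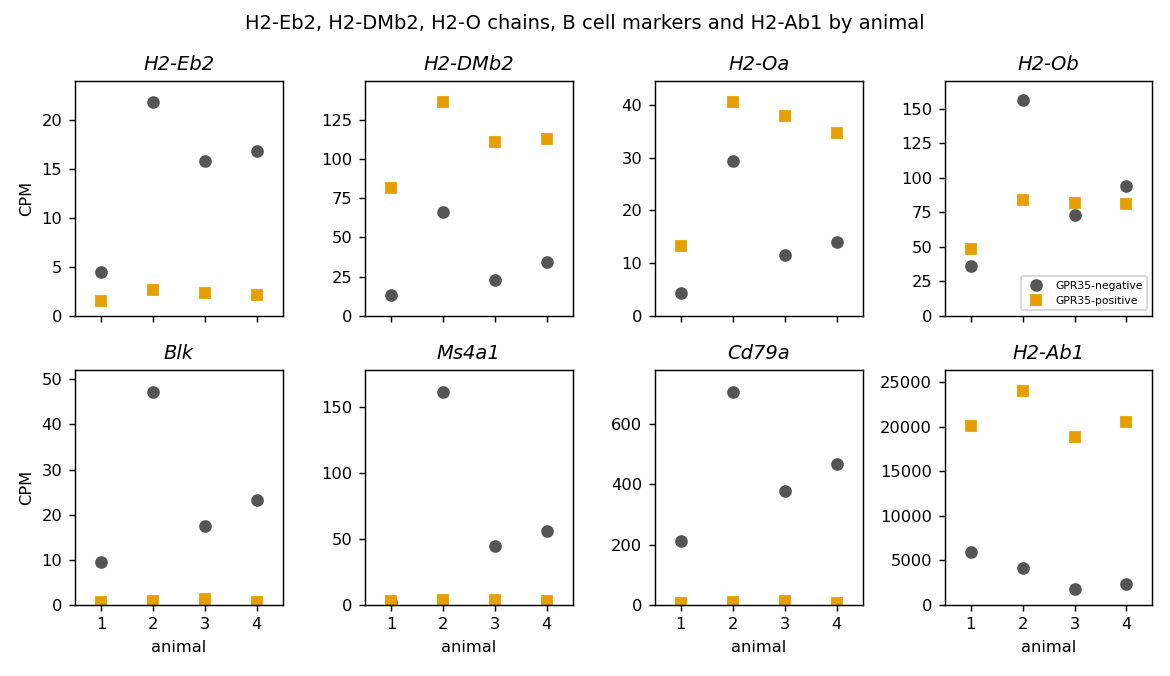
Level in TMM-scaled CPM (linear axes from 0) of H2-Eb2, H2-DMb2, H2-Oa, H2-Ob, the B cell genes Blk, Ms4a1 and Cd79a, and H2-Ab1 by animal, with circles for GPR35-negative and squares for GPR35-positive libraries. Among the negative libraries, animal 1 is the lowest and animal 2 the highest for the genes of the upper row and the B cell genes, whereas animal 1 is the highest for H2-Ab1.

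Across the 8 libraries, deviations of log2 CPM from the group mean were compared between genes as a description, since the libraries share animals and the negative group supplies most of the spread. With the mean deviation of H2-Aa, H2-Ab1, H2-Eb1 and Cd74, Pearson's r was 0.99 for H2-DMa, 0.97 for H2-DMb1 and 0.97 for Ciita. It was -0.05 for H2-DMb2 and -0.50 for H2-Eb2, and without the negative library of animal 1 these became 0.94 and 0.62, so both low values rest on that library. With H2-Eb2, r was 0.88 for H2-DMb2, 0.91 for H2-Oa, 0.94 for H2-Ob and 0.96 for Ms4a1, and without that library 0.82, 0.97, 0.91 and 0.66. Among 9399 genes whose mean log2 CPM reached 3, the 8 most like the classical chains and Cd74 included Ccl3, Ccl4, Irf5, Aph1c, Ly86, Marcksl1 and Spp1, with r from 0.986 for Spp1 to 0.998 for Ccl3. Under macrophage identity scaling r with the chains was 0.54 for Ccl3, 0.40 for Ccl4, 0.93 for H2-DMb2 and 0.85 for H2-Eb2, so likeness rests on the scaling too. The 8 most like H2-Eb2 included Helq, Eif3g, Prkar2b, Psph, Cdc34, H13 and Emc10, with r from 0.961 for Emc10 to 0.988 for Helq, and without the negative library of animal 1 these were 0.778 for Emc10 and 0.947 for Helq.

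Other genes of the class II pathway were taken from lists of 52 tested genes outside the 9. Of these, 28 were called higher and 7 lower in GPR35-positive libraries, with a median log2 fold change of 0.77 against -0.05 over all genes. Over all genes tested, 18.5% were called higher and 19.5% lower. Under scaling to the macrophage identity genes 0 were called higher and 38 lower, beside 0.402% and 87.0% of all genes. The 38 of 52 called lower were thus a smaller share than over all genes, and each list below is read against these shares. Values that follow are log2 fold changes ± SE under TMM.

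In the endosomal processing list, 11 of 11 genes rose under TMM, with a median of 1.45, while 0 were called higher and 6 lower under macrophage identity scaling. Ctss, the cathepsin that makes the late cuts in the invariant chain, was at 2.28 ± 0.27 (adjusted p = 4.58e-04, edgeR), with 3058 to 3787 CPM in the positive and 456 to 1095 CPM in the negative libraries. Ctsh, another cathepsin, was at 2.13 ± 0.31, Ifi30, which reduces disulfide bonds in endosomes, at 1.94 ± 0.20, and Ctsz at 1.45 ± 0.16. Scaled to the macrophage identity genes, Ctss was at -0.17 and Ctsh at -0.27, neither past the threshold.

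Of the promoter factors that sit on the X and Y boxes, 2 of 8 rose and 2 fell, with a median of 0.07, and 0 were higher and 7 lower under macrophage identity scaling. These counts lay near the shares over all genes under either scaling. Rfx5 was at 0.50, Rfxank at -0.16 and Rfxap at 0.01, none past the threshold. Among NF-Y subunits, Nfya rose by 1.21 ± 0.40 (adjusted p = 0.0408, edgeR) at a low level of 6.30 to 9.11 CPM in the positive libraries, and Nfyb fell by 0.81. Creb1 was at 0.82 ± 0.17 and Creb3 at -0.51 ± 0.12. The calls of Nfya, Nfyb and Creb3 were lost in some omissions of an animal or a library. Adjusted p was then up to 0.122 for Nfya (0.97 to 1.41, lost in 9 omissions), 0.0542 for Nfyb (-0.57, without animal 2) and 0.0689 for Creb3 (edgeR).

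Of the genes listed as inducers of Ciita, 7 of 11 rose and 1 fell, with a median of 0.84, and 0 were higher and 8 lower under macrophage identity scaling. Irf8 was at 2.04 ± 0.24, Spi1, which is also on the macrophage identity list, at 2.08 ± 0.33, and the interferon gamma receptor chains Ifngr1 and Ifngr2 at 1.46 ± 0.21 and 1.70 ± 0.22. Irf1 was at 0.60 and did not pass the threshold. Irf4, a factor of B and plasma cells as well as of dendritic cells, was at -2.57 ± 0.23 (adjusted p = 1.28e-04, edgeR), with 163 to 292 CPM in the negative and 28.0 to 44.0 CPM in the positive libraries.

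Turnover and trafficking genes had 3 of 7 higher and 1 lower, with a median of 0.61, and 0 higher and 6 lower under macrophage identity scaling. March1, the ubiquitin ligase that sends class II and CD86 for degradation, was at 2.09 ± 0.56 (adjusted p = 0.0184, edgeR), with 144 to 189 CPM in the positive and 11.4 to 79.4 CPM in the negative libraries. Its call was lost without animal 2, 3 or 4 (1.76 to 2.28, adjusted p up to 0.0612, edgeR). The tetraspanins Cd63 and Cd81 were at 1.13 ± 0.22 and 0.98 ± 0.14, and Cd37, a tetraspanin of B cells, at -1.42 ± 0.24. Of the costimulatory ligands seen by T cells together with class II, 4 of 6 rose and 1 fell, with a median of 1.45, and 0 were higher and 3 lower under macrophage identity scaling. Cd40 was at 2.02 ± 0.30, Cd86 at 2.02 ± 0.56, Cd80 at 1.65 ± 0.35, Icosl at 1.25 ± 0.22 and Pdcd1lg2 at -1.97 ± 0.38. The call of Cd86 was lost in 5 omissions of an animal or a library, among them those of animals 2, 3 and 4 (1.68 to 1.97, adjusted p up to 0.103, edgeR).

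**Figure D5:**
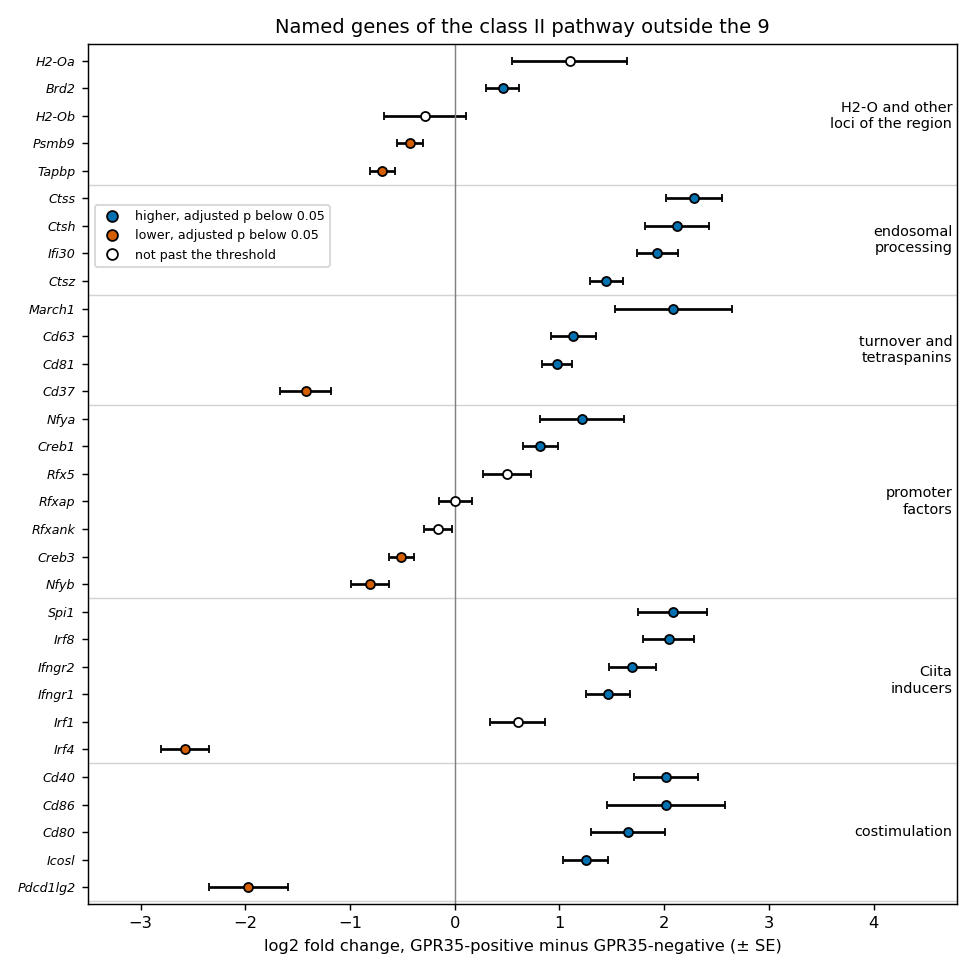
Log2 fold change (GPR35-positive minus GPR35-negative, TMM scaling, ± SE from edgeR) of the pathway genes outside the 9 that are named in the text, grouped by list, with blue points higher and orange points lower at an adjusted p below 0.05 and open points not past it. The 4 endosomal processing genes shown lie to the right of 0, whereas promoter factors lie on both sides.

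In the list of H2-DO chains and other loci of the region, 1 of 9 rose and 2 fell, beside 38.0% of all genes called, with a median of -0.28, and 0 were higher and 8 lower under macrophage identity scaling. Tapbp, the class I chaperone tapasin, was at -0.69 ± 0.12 and Psmb9, an immunoproteasome subunit, at -0.42 ± 0.12, and Brd2, which overlaps H2-DMa, rose by 0.46 ± 0.16 (adjusted p = 0.0471, edgeR). With an animal or a library left out, adjusted p reached 0.146 for Brd2 and 0.124 for Psmb9 (edgeR), so both calls rest on the full set of libraries. Library-size scaling also ended the call of Brd2. Dendritic cell genes, which could mark another class II-rich cell type, had 3 of 12 higher (Cd209a at 4.70 ± 0.67, Dpp4 at 2.93 ± 0.40 and Batf3 at 2.40 ± 0.42) and 1 lower (Cd24a at -2.54 ± 0.56, and -2.22 with adjusted p = 0.0527 by edgeR without animal 2), with summed levels of 223 to 622 CPM in the positive and 201 to 615 CPM in the negative libraries. Under macrophage identity scaling 1 of the 12 was called higher (Cd209a at 1.87, adjusted p = 0.0308, edgeR) and 4 lower. Under TMM Flt3, Zbtb46, Xcr1 and Clec9a did not pass the threshold. Cd209a was at 29.0 CPM in the positive library of animal 1 and at 239 to 257 CPM in the other positive libraries. The part of dendritic cells in the class II levels was not tested. Genes of T and innate lymphoid cells had 7 of 9 lower and 0 higher, and those of eosinophils and mast cells 3 of 6 lower and 0 higher. Those of epithelium had 2 of 8 lower and 0 higher, and those of stroma and endothelium 6 of 10 lower and 0 higher. Over all genes tested, 18.5% were called higher and 19.5% lower. The few calls of the dendritic and epithelial lists are therefore not read as a result about those cells.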

How the data were processed

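The values deposited are raw counts of reads for each gene, and the library method, SMART-Seq v4 with Nextera XT per the labels' protocols, marks no strand and no molecules, so PCR copies count as reads. The submitters' processing notes name mm10, R 3.4.2 and STAR 2.5.2a; the counting step was not given in the sources used here. From the deposited counts, 9 genes with no symbol (0.0179% of counts) were left out. Counts were tested with edgeR 4.0.16 (R 4.3.3; filterByExpr with minimum count 10 and total 15, TMM, robust quasi-likelihood F-test, Benjamini-Hochberg over 14184 genes, threshold 0.05), with no block as the main design. SE was taken as log2 fold change divided by the root of F.

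The labels give the same animal to a positive and a negative library, so the replicate numbers pair them. Across genes, deviations from the group mean of the libraries of an animal had correlations of 0.206, 0.206, 0.431 and 0.0637 for animals 1 to 4. The highest correlation across groups with a library of another animal was 0.104, 0.104, 0.237 and 0.237. For animal 4 the paired library was thus not the most alike.

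Alternatives were RLE, library-size, upper-quartile and macrophage identity scaling, other filters, DESeq2 1.42.0, limma 3.58.1 voom with quality weights, no robust estimation, a replicate block, thinning, and leaving out libraries or animals. The test was also run on simulated data. Exact permutation tests used Python 3.11.15. Of 153 listed genes, 8 were not among those in the table as used here.

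The members, lists and tests were chosen with earlier results of these data known. Named genes were the 9 members, Gpr35, Fcgr1, H2-Oa, H2-Ob, up to 4 genes per list and direction with the smallest p past the threshold, and the 8 genes most like the classical chains with Cd74 and most like H2-Eb2. Rfx5, Rfxank, Rfxap, Irf1, Ms4a1 and Cr2 were named in addition after their values were seen. Some genes that the rule or the lists hold are not reported here.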

Additional observations from a re-analysis of the deposited data

Results flagged for a closer look

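Single libraries were set against the other 3 of their group for 66 groups of values, and in 8 of them the gap to the nearest library took up most of the whole range, above Dixon's critical value. Chance flags about 1 in 20 such groups. Of levels, H2-Eb1 was 13606 CPM in the GPR35-positive library of animal 2 against 9915 to 10293 CPM in the other 3, and H2-Ob was 48.4 CPM in the positive library of animal 1 against 80.9 to 84.1 CPM.

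The GPR35-negative library of animal 1 stood apart in 4 log2 ratios of counts. H2-DMb2 to H2-Ab1 was -8.77 there against -6.24 to -5.97, H2-Oa to H2-DMa was -6.22 against -3.43 to -3.21, H2-Ob to H2-DMb1 was -3.31 against -0.55 to -0.37, and H2-Eb2 to the plasma cell gene Jchain was -13.90 against -12.63 to -12.44. In the positive group, H2-DMb2 to H2-DMb1 was -3.92 in animal 1 against -3.58 to -3.51, and H2-Eb2 to Jchain was -7.95 in animal 2 against -9.84 to -9.71.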

How the results depend on the processing

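Under every alternative run but macrophage identity scaling, all 9 class II genes kept their direction. All kept their calls except H2-DMb2 without animal 3 or 4, and H2-Eb2 did not pass the filter of 5 CPM in 4 libraries, which left 0 members called lower. With an animal or a library left out, H2-DMb2 ran from 1.43 to 2.28, and the genes called numbered 3284 without animal 3, 3304 without animal 4 and up to 5966 without the negative library of animal 1. The pathway genes called lower ran from 4 (without animal 2) to 10 with such omissions and were 11 under library-size scaling, which moved the median of all genes to -0.34. Over those alternatives the log2 fold change ran from 2.24 to 2.92 for H2-Aa, 2.29 to 2.96 for H2-Ab1, 2.18 to 2.95 for H2-Eb1, 2.05 to 2.65 for H2-DMa, 2.51 to 3.28 for H2-DMb1, 1.42 to 2.28 for H2-DMb2, 1.60 to 2.09 for Cd74, 2.34 to 2.98 for Ciita and -3.07 to -2.44 for H2-Eb2. With the replicate block all 9 kept their calls, and 5585 genes passed against 5386 without it.

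Scaling to the macrophage identity genes, without and then with the replicate block, called 12397 and 11735 genes, 0 and 0 members and 0 and 0 other pathway genes higher, and 38 and 35 other pathway genes lower. The median of all genes was then -2.74 and -2.48. The log2 fold changes of the members were 0.20 and 0.22 for H2-Aa, 0.24 and 0.26 for H2-Ab1, 0.20 and 0.21 for H2-Eb1, -0.068 and -0.033 for H2-DMa, 0.47 and 0.47 for H2-DMb1, -0.999 and -0.62 for H2-DMb2, -0.59 and -0.52 for Cd74 and 0.24 and 0.29 for Ciita. Genes whose direction turned under both were Fcgr1 (-0.19 and -0.18), Brd2 (-2.15 and -1.99), Ctss (-0.17 and -0.12), Ctsh (-0.27 and -0.24), Ctsz (-1.16 and -1.02), Ifi30 (-0.66 and -0.53), Cd63 (-1.44 and -1.28), Cd81 (-1.67 and -1.50), Nfya (-1.35 and -1.13), Creb1 (-1.76 and -1.65), Ifngr1 (-1.04 and -0.97), Ifngr2 (-0.80 and -0.73), Irf8 (-0.43 and -0.37), Spi1 (-0.27 and -0.25), Cd80 (-0.79 and -0.69), Cd86 (-0.033 and -0.023), Cd40 (-0.46 and -0.44), Icosl (-1.29 and -1.18), Fcer1g (-0.20 and -0.18) and Prdm1 (-2.07 and -1.83). Without the block, March1 (-0.050) and H2-Oa (-1.62) turned as well, and with it H2-Oa was also below 0 but not past the threshold. The scaling's own construction sets the macrophage identity genes near 0.

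Fcgr1 lost its call without animal 2 (2.03, adjusted p = 0.0549) or animal 4 (1.77, 0.0543). Among the other genes named, Brd2, Psmb9, Nfya, Nfyb, Creb3, March1, Cd86, Cd24a and Prdm1 also lost theirs in at least 1 omission of an animal or a library. The lowest count of any member in a library was 64, for H2-Eb2, and the spread over 4 animals sets the errors given.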
